A study of Drosophila melanogaster with 6 samples.

Results

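The genes examined here were the 3 Unpaired cytokine genes *upd1*, *upd2* and *upd3*, which lie side by side on the X chromosome, and the JAK/STAT pathway genes *dome*, *hop* and *Stat92E*. They were taken by name and make 6 of the 17684 genes annotated on the 6 chromosome arms. The positions of topologically associating domains (TADs), stretches of chromosome that contact themselves more than their surroundings, had been called from Hi-C of eye discs and antennal discs dissected from *Drosophila melanogaster* larvae in the last larval stage. Every library came from the genotype yw;+;+ and from a pool of 125 discs, so a domain is an average over all cells of many discs and p-values measure the spread between such pools. Eye disc libraries 1, 2 and 3 were compared with antennal disc libraries 2 and 3; a first antennal disc library was not used here. Beside them stand the authors' pooled lists, 1 for each disc, which enter no test. The pooled antennal disc list may include the first antennal disc library. The lists hold no expression values, so the disc identity of a library could not be checked against marker genes, and the sex of the larvae is not given in the sources used here.

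Unpaired ligands are secreted proteins that bind Domeless, the receptor encoded by *dome*. Binding activates the Janus kinase Hopscotch, encoded by *hop*, which phosphorylates the transcription factor Stat92E; this moves into the nucleus and switches on targets such as *Socs36E*, whose product dampens the signal. In the eye disc *upd1* is known for its expression at the posterior midline and for driving growth, while *upd2* and *upd3* are also known as signals of the fat body and of damaged tissue. In flies *upd1*, *hop* and *sisA*, a neighbour of *hop*, also take part in reading the number of X chromosomes in the embryo.

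The lists held 1188, 1142 and 1116 TADs in eye disc libraries 1, 2 and 3, and 1186 and 1217 in antennal disc libraries 2 and 3. Eye disc library 1 and antennal disc library 3 stood apart: on arm 3R no TAD was called before 3605001 and 3260001 in them, whereas calls in the other libraries began at or below 465001 (dm6). All 6 genes lay inside the called stretch of every library. Edges fall on a grid of 5 kb, so an edge within 1 bin of a gene end cannot be placed on either side of it. Depth is unknown and no counting error can be given.

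No border parted the Unpaired genes in either disc. They span 68.6 kb of X, 18240654 to 18309291 in dm6, in the order *upd2* (18240654 to 18243284), *upd3* (18277233 to 18284596) and *upd1* (18305354 to 18309291). The gap between *upd2* and *upd3* is 33.9 kb and holds the small protein-coding gene *CG15059*; that between *upd3* and *upd1* is 20.8 kb. The number of borders inside the span was 0 in each of eye disc libraries 1, 2 and 3 and 0 in each of antennal disc libraries 2 and 3, and also 0 in both pooled lists. All 7 lists therefore put the 3 ligand genes into 1 TAD. With no variation between libraries the two-sided exact permutation test gave p = 1.

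A stretch of this length without a border is not rare in these lists. Of the runs of 3 neighbouring protein-coding genes whose span is within 25% of that of the cluster, 33.9% held no border in any of the 5 libraries, and of such runs of 4 genes, the number from *upd2* to *upd1* with *CG15059*, 28.9%. Taken library by library, runs of 3 without a border made up 51.4%, 62.3% and 60.1% in eye disc libraries 1, 2 and 3, and 63.6% and 56.3% in antennal disc libraries 2 and 3.

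**Figure D1:**
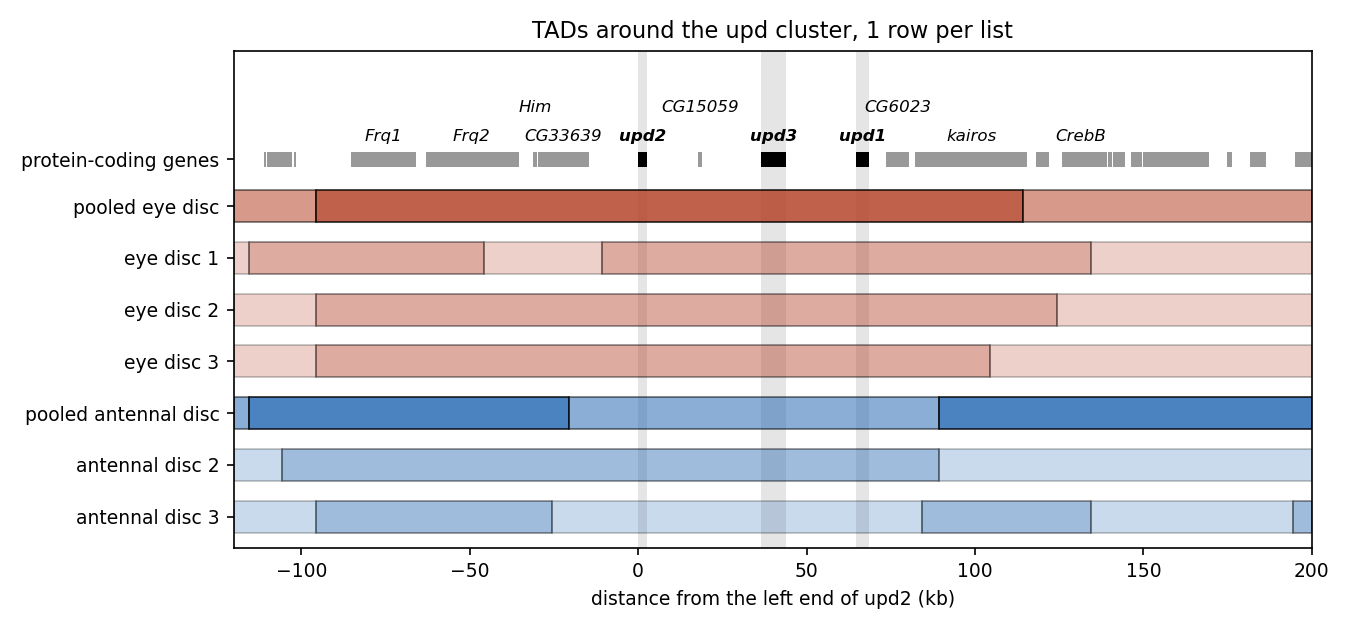
TADs around the *upd* cluster, 1 row per list, with protein-coding genes on top and the 3 ligand genes shaded; the x axis is the distance from the left end of *upd2* in kb, and each box is a TAD, with alternating shades only to separate neighbours. No box edge falls between *upd2* and *upd1* in any of the 7 lists, and the right edge of the box that holds them lies farther right in the 3 eye disc libraries than in the 2 antennal ones.

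The domain around the ligand genes reached farther beyond *upd1* in the eye disc. Its right edge lay at 18375000, 18365000 and 18345000 in eye disc libraries 1, 2 and 3, and at 18330000 and 18325000 in antennal disc libraries 2 and 3. The eye disc libraries were all to the right of the antennal ones: the nearest values of the discs were 15 kb apart, the eye disc libraries ranged over 30 kb and the antennal ones over 5 kb. From the end of *upd1* to this edge the distance averaged 52.4 ± 15.3 kb across eye disc libraries (SD, n = 3) and 18.2 ± 3.54 kb across antennal ones (SD, n = 2), a difference of 34.2 kb. The two-sided exact permutation test gave p = 0.2, the smallest that 3 against 2 libraries allow, and Benjamini-Hochberg adjustment over 17227 genes gave an adjusted permutation p of 1. The pooled lists differed by 25 kb in the same direction. Leaving out any 1 library gave differences of 27.5 to 42.5 kb. The distance to the right edge was looked at after the lists had been seen.

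A right flank longer in every eye disc library than in every antennal one was found for 7.78% of all genes, and one shorter in every eye disc library for 5.23%. The 3 ligand genes share the edge, so they count as 1 observation against that background; neither pattern occurred at *dome*, *hop* or *Stat92E*.

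The right edges varied over a stretch that takes in all of *CG6106* (X, 18358881 to 18362527) and most of *kairos* (18322958 to 18356191). The start of *kairos* lies left of every right edge. *CG6106* was whole in the ligand domain in eye disc libraries 1 and 2 and in no other list. *kairos* lay whole in the domain of the ligand genes in the same 2 libraries, and an edge fell inside it in eye disc library 3, both antennal disc libraries and both pooled lists. In eye disc library 2 the edge was less than 1 bin from the end of *CG6106*. The edge was also less than 1 bin from the start of *kairos* in antennal disc library 3 and from its end in the pooled eye disc list. These placements are therefore not settled. In eye disc library 1 the edge fell in *CrebB*, which encodes a CREB transcription factor, and in eye disc library 2 it lay 1.36 kb short of that gene. Antennal disc library 3 had a further border at 18375000, the very position of the right edge in eye disc library 1, with a TAD of 50 kb in between. A border at that place was thus not limited to the eye disc.

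The left edge of the domain did not part the libraries by disc, whereas the pooled lists differed. It started at 18230001, 18145001 and 18145001 in eye disc libraries 1, 2 and 3, and at 18135001 and 18215001 in antennal disc libraries 2 and 3. Eye disc library 1 and antennal disc library 3, which stood apart on arm 3R, had the short left side. On X the calls of both began at 235001, as in eye disc libraries 2 and 3. Whatever sets these libraries apart was not tested as a cause. From this edge to the start of *upd2* the distance averaged 67.3 ± 49.1 kb across eye disc libraries and 65.7 ± 56.6 kb across antennal ones (SD, n = 3 and 2), with a difference of 1.67 kb (two-sided exact permutation p = 0.8). The difference changed sign without antennal disc library 3, to −38.3 kb, without eye disc library 2 or 3, to −12.5 kb, and without both libraries that stood apart, to −10 kb. The pooled eye disc list started the domain at 18145001 and the pooled antennal disc list at 18220001, 75 kb farther right. A longer left flank in every eye disc library was found for 6.87% of all genes and a shorter one for 5.96%, and for none of the 6 pathway genes.

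The nearest protein-coding gene left of *upd2* is *CG33639* (X, 18210812 to 18226076). It shared the domain with *upd2* in eye disc libraries 2 and 3, and likewise in library 2 of the antennal disc. In eye disc library 1 the edge lay 3.92 kb beyond it, in antennal disc library 3 and the pooled antennal disc list inside it. Farther left, *Him*, an inhibitor of muscle differentiation, and *Frq2*, a frequenin calcium sensor gene, were in the ligand domain in the same 3 libraries.

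Over all, the host TAD of the ligand genes was 145, 220 and 200 kb wide in eye disc libraries 1, 2 and 3, and 195 and 110 kb in antennal disc libraries 2 and 3. The mean was 188 ± 38.8 kb across eye disc libraries and 153 ± 60.1 kb across antennal ones (SD, n = 3 and 2), a difference of 35.8 kb (two-sided exact permutation p = 0.4), and the values of the discs overlapped. The pooled lists gave 210 kb with eye discs and 110 kb with antennal discs. The left edges of the pooled lists were farther apart than their right edges. Without antennal disc library 3 the difference between the libraries was −6.67 kb, and without antennal disc library 2 it was 78.3 kb.

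The genes most like the ligands in their domain, measured as the number of the 5 libraries in which a protein-coding gene lay whole in the same TAD, were few. With *upd1* these were *CG6023*, 4.83 kb to its right, *upd3*, *CG15059* and *upd2*, each in 5 of 5 libraries, and next *CG33639*, in 3 of 5. The ligand domain held 7, 13 and 11 protein-coding genes whole in eye disc libraries 1, 2 and 3, and 12 and 5 in antennal disc libraries 2 and 3. Host TADs of the ligand genes were also the least steady of the 6. No pair of libraries had both edges within 1 bin of each other, a pattern shared by 8.59% of all genes.

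As a result of the moving edges the ligand genes lay at unequal depth in their domain. The border distance, the mean over both gene ends of the distance to the nearest border, was 67.7, 57.7 and 37.7 kb for *upd1* in eye disc libraries 1, 2 and 3, and 22.7 and 17.7 kb in antennal disc libraries 2 and 3. Every eye disc value exceeded every antennal one. The means were 54.3 ± 15.3 kb and 20.2 ± 3.54 kb (SD; eye disc, n = 3; antennal disc, n = 2), a difference of 34.2 kb (two-sided exact permutation p = 0.2; adjusted permutation p = 1 over 17570 genes).

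For *upd3*, the middle gene, the distances were 50.9, 84.1 and 64.1 kb in eye disc libraries 1, 2 and 3, and 49.1 and 44.1 kb in antennal disc libraries 2 and 3. These values did not overlap either, though the lowest eye disc value and the highest antennal one differed by less than 1 bin. The difference was 19.8 kb (two-sided exact permutation p = 0.2). For *upd2* they were 12, 97 and 97 kb in eye disc libraries 1, 2 and 3, and 88 and 27 kb in antennal disc libraries 2 and 3. Here the discs overlapped, the difference was 11.1 kb (two-sided exact permutation p = 1), and the low values were those of eye disc library 1 and antennal disc library 3. The difference turned to −3.03 kb without eye disc library 2 or 3 and to −19.4 kb without antennal disc library 3. The pooled lists put *upd2* 97.0 kb from a border with eye discs and 22.0 kb with antennal discs.

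Thus 2 of the 6 genes, *upd1* and *upd3*, were farther from borders in every eye disc library than in every antennal one, against 7.73% of all genes. The 2 genes lie in the same TAD, so they are not independent observations against that background. The right edge was the nearest border for both, except for *upd3* in eye disc library 1, where the left edge was nearer (left flank 47.2 kb, right flank 90.4 kb). No gene of the 6 was nearer in every eye disc library, against 5.29%.

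**Figure D2:**
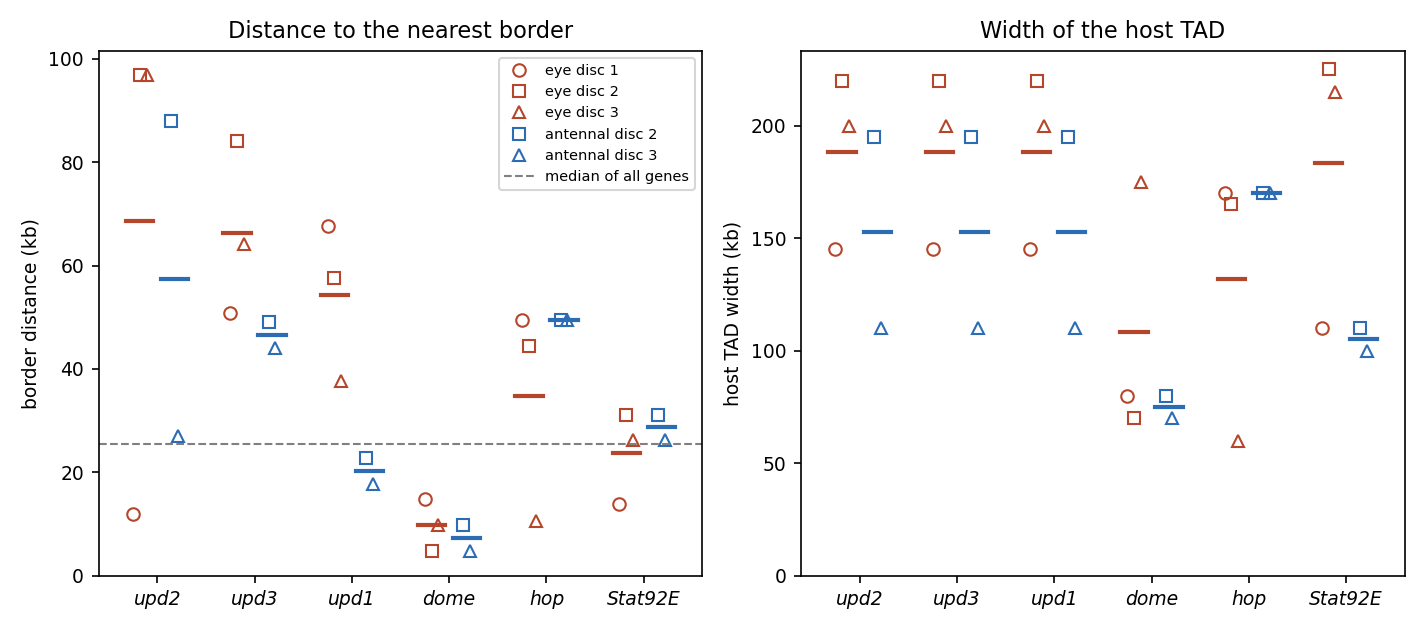
Border distance (left) and host TAD width (right) of the 6 genes in kb; each symbol is 1 library, eye disc libraries left of antennal ones, bars are means of each disc, and the dashed line is the median border distance of all genes (25.6 kb). The discs do not overlap for the border distance of *upd1* and *upd3* and overlap for the other genes and for all widths.

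The receptor gene *dome* (X, 19676061 to 19683518) sat at the left rim of its domain in both discs. The left edge lay 11.1, 1.06 and 6.06 kb before the gene in eye disc libraries 1, 2 and 3, and 6.06 and 1.06 kb before it in antennal disc libraries 2 and 3. All 5 edges are within 2 bins of each other. The border distance averaged 9.79 ± 5 kb across eye disc libraries and 7.29 ± 3.54 kb across antennal ones (SD, n = 3 and 2), with overlapping values and a two-sided exact permutation p of 1. At 8.54 kb, the mean of the disc means, *dome* was the nearest of the 6 to a border, and 12.8% of all genes were nearer.

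Immediately left of *dome*, 0.169 kb away, lies *et*, eye transformer, which encodes a receptor of related structure that dampens the pathway. A border fell inside *et* in eye disc library 2 and antennal disc library 3, 1 library of each disc. In the other 3 libraries and both pooled lists *et* and *dome* lay whole in the same TAD. Where it did not cut *et*, the edge fell in *Ssu72*, an RNA polymerase phosphatase gene, in eye disc library 1, and in *Zw*, the glucose-6-phosphate dehydrogenase gene, in eye disc library 3 and antennal disc library 2. With bins of 5 kb and *et* 3.58 kb long, the lists cannot settle whether the border separates the receptor genes.

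To the right, the *dome* domain ended at 19745000, 19745000 and 19845000 in eye disc libraries 1, 2 and 3, and at 19750000 and 19745000 in antennal disc libraries 2 and 3. Eye disc library 3 alone lacked the border near 19745000, and its domain was 175 kb wide, against 80 and 70 kb in eye disc libraries 1 and 2 and 80 and 70 kb in antennal disc libraries 2 and 3. The mean difference of 33.3 kb (two-sided exact permutation p = 1) was 0 kb without that library. The pooled lists gave 75 kb with eye discs and 80 kb with antennal discs. In every library 14 protein-coding genes lay whole in the *dome* domain. The nearest of these were *Ubqn* (ubiquilin), *CG14227*, *Mer*, which encodes the growth regulator Merlin, *CG14229* and the small GTPase gene *Cdc42*.

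The kinase gene *hop* (X, 11360930 to 11368098) lay in a domain with a steady left edge. It started at 11315001, 11320001 and 11315001 in eye disc libraries 1, 2 and 3, and at 11315001 in antennal disc libraries 2 and 3, within 1 bin throughout. The right edge was at 11485000 in eye disc libraries 1 and 2 and in both antennal disc libraries. In eye disc library 3 it was at 11375000, 6.90 kb beyond *hop*, and in the pooled eye disc list at 11370000, 1.90 kb beyond it. Both positions fall in *dlg1*, the gene of the polarity scaffold Discs large.

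The *hop* domain was accordingly 170, 165 and 60 kb wide in eye disc libraries 1, 2 and 3, and 170 and 170 kb in antennal disc libraries 2 and 3. The border in *dlg1* was thus called in 1 of 3 eye disc libraries, in the pooled eye disc list and in no antennal list. The mean widths were 132 ± 62.1 kb across eye disc libraries and 170 ± 0 kb across antennal ones (SD, n = 3 and 2), with a difference of −38.3 kb and a two-sided exact permutation p of 0.6. Without eye disc library 3 the difference was −2.5 kb. The border distance was 49.5, 44.5 and 10.5 kb in eye disc libraries 1, 2 and 3, and 49.5 and 49.5 kb in antennal disc libraries 2 and 3 (two-sided exact permutation p = 0.6), again with eye disc library 3 alone low. The pooled lists gave 5.49 kb with eye discs and 49.5 kb with antennal discs.

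In every library *hop* shared its domain whole with 13 protein-coding genes. The nearest were *Pa1*, which adjoins it, *Tim8*, a mitochondrial import gene 0.346 kb away, *dsh*, which encodes the Wnt pathway protein Dishevelled (2.21 kb), *CG1737* and the respiratory chain gene *NdufV3*. The sex-determination gene *sisA*, 38.6 kb to the left, was among the 13. It is the protein-coding gene nearest to the left edge of the domain in the pooled eye disc list, 1.58 kb from it.

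The transcription factor gene *Stat92E* (3R, 20535323 to 20552311) lay in a domain whose right edge was alike in 4 libraries. That edge was at 20640000, 20575000 and 20570000 in eye disc libraries 1, 2 and 3, and at 20575000 and 20570000 in antennal disc libraries 2 and 3. In the 4 libraries that were alike it fell inside *CG5191* or 0.244 kb from *TFAM*, a mitochondrial transcription factor gene. Eye disc library 1 lacked it and had its next edge in *Lrrk*.

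The left edge differed more. It lay at 20530001, 20350001 and 20355001 in eye disc libraries 1, 2 and 3, and at 20465001 and 20470001 in antennal disc libraries 2 and 3. Both antennal edges fell inside *Gfrl* (20378458 to 20484588), the gene of a receptor related to the GDNF receptors, so *Stat92E* shared a domain with only the end of that gene nearest to it. In eye disc libraries 2 and 3 and the pooled eye disc list *Gfrl* was whole in the *Stat92E* domain. In eye disc library 1 the border inside *Gfrl* lay at 20415001, and the *Stat92E* domain began 5.32 kb left of *Stat92E*.

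These edges gave *Stat92E* host TADs of 110, 225 and 215 kb in eye disc libraries 1, 2 and 3, and of 110 and 100 kb in antennal disc libraries 2 and 3. The means were 183 ± 63.7 kb and 105 ± 7.07 kb (SD; eye disc, n = 3; antennal disc, n = 2), a difference of 78.3 kb with a two-sided exact permutation p of 0.4. Eye disc library 1 equalled antennal disc library 2, so the values of the discs overlapped. Without eye disc library 1 the difference was 115 kb, and the pooled lists gave 220 kb with eye discs and 100 kb with antennal discs. A wider host TAD in every eye disc library was found for 11.0% of all genes and a narrower one for 6.66%, and for none of the 6.

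The border distance of *Stat92E* was 13.8, 31.2 and 26.2 kb in eye disc libraries 1, 2 and 3, and 31.2 and 26.2 kb in antennal disc libraries 2 and 3. Libraries 2 and 3 had the same values in both discs, since the right edge sets the distance there, and only eye disc library 1 was lower (two-sided exact permutation p = 1). In every library 7 protein-coding genes shared the domain whole. They include the metallothionein genes *MtnD* (0.021 kb away) and *MtnE*, *DPCoAC*, which encodes a mitochondrial carrier (0.073 kb), *att-ORFB* and *CG5180*.

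**Figure D3:**
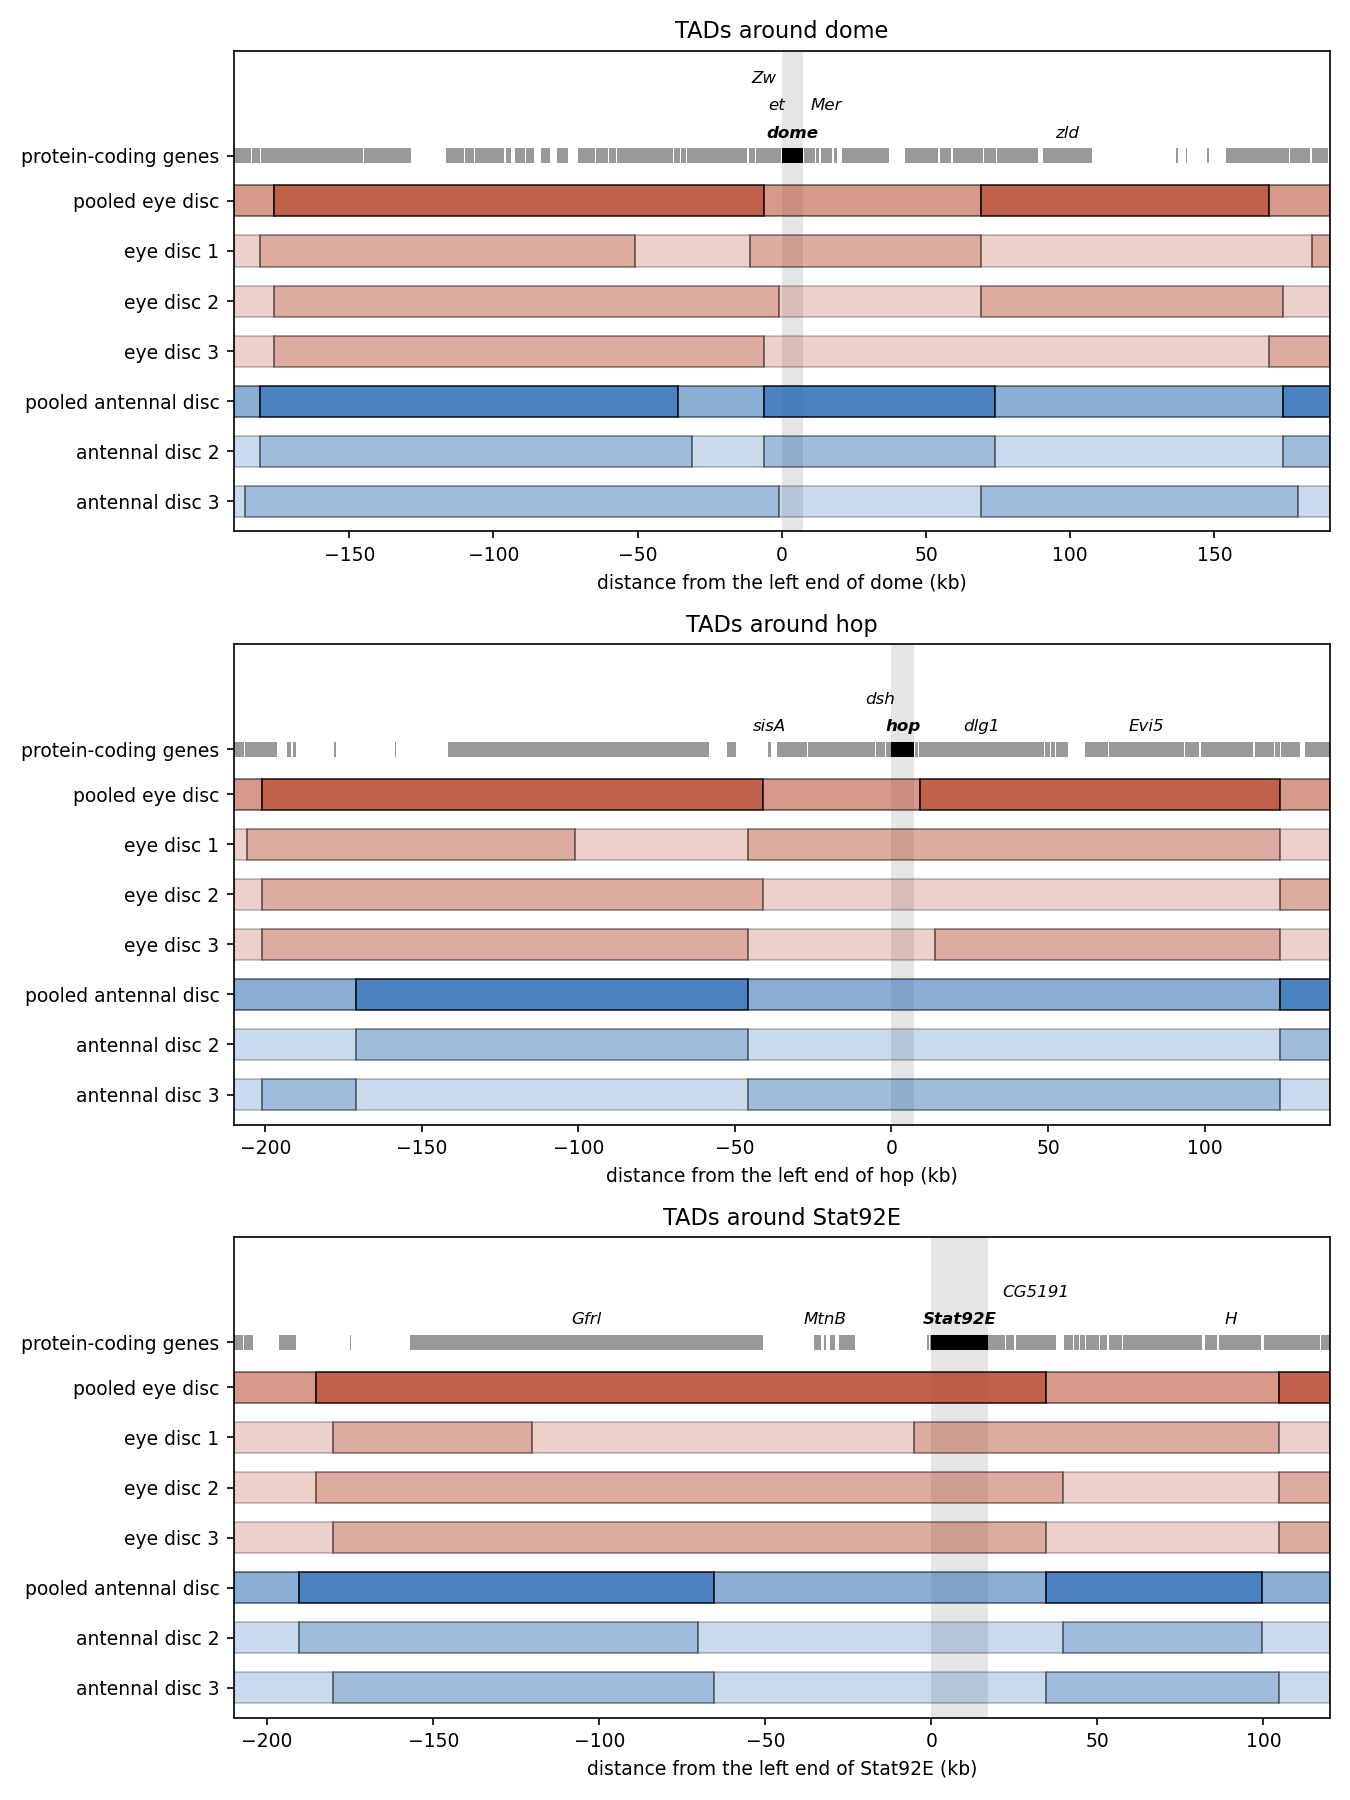
TADs around *dome*, *hop* and *Stat92E*, 1 row per list, against the distance in kb from the left end of each gene (shaded), with protein-coding genes on top. The left edge beside *dome* lies within 11.1 kb of the gene in all 7 lists, the edge right of *hop* within *dlg1* is seen in eye disc library 3 and the pooled eye disc list, and the left edge at *Stat92E* is inside *Gfrl* in the antennal disc rows.

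Ordered by border distance, the mean of the disc means, the genes ran from *dome* (8.54 kb) through *Stat92E* (26.2 kb), *upd1* (37.3 kb), *hop* (42.2 kb) and *upd3* (56.5 kb) to *upd2* (63.1 kb), against a median of 25.6 kb over all genes. The ranges over the 5 libraries overlapped between all neighbours in this order. The lowest value of *upd1*, 17.7 kb, was above the highest of *dome*, 14.8 kb. No called border fell inside any of the 6 genes in any of the 7 lists. The edges 1.06 kb from *dome* and 1.90 kb from *hop* were within 1 bin and cannot be placed on either side. At least 1 of the 5 libraries had a border inside 11.1% of all genes, and inside 17.9% of genes as long as these (2.63 to 17.0 kb), so a count of 0 of 6 lies close to the background.

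The share of immediate neighbours that these genes kept lay close to the background. Of the 11 pairs that they form with the nearest protein-coding gene on each side, 9 had no border within the pair in any of the 5 libraries (81.8%), against 71.8% of all neighbouring pairs of protein-coding genes. The exceptions were *CG33639* with *upd2*, and *et* with *dome*.

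The host TADs were compared with those of the pooled list of the same disc, a list that contains the library itself. Both edges were within 1 bin in 1 of 5 libraries for each ligand gene, in 4 for *dome*, in 3 for *hop* and in 4 for *Stat92E*, and the median gene reached 3. None of the 6 reached 5 of 5, which 10.5% of all genes did. Pairs of libraries with both edges alike numbered 4 of 10 for *dome*, 6 for *hop* and 2 for *Stat92E*, and the median gene had 3.

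Of 22 further JAK/STAT genes listed by function, the 7 that encode receptor-like or inhibitory proteins all lay nearer to a border than the median gene by the mean of the disc means. Within the eye disc 2 of the 7 lay farther than the median gene (26.0 kb), *Socs44A* with a mean of 33.1 kb and *ken* with 32.2 kb. Over both discs the median of the 7 was 17.3 kb, that of all 22 genes 19.5 kb and that of all genes 25.6 kb. A border fell inside 3 of the 7 in at least 1 library, against 8 of the 22 and 11.1% of all genes. Gene length was not matched here. Among the 3, *Ptp61F* is 133 kb long and held a border in all 5 libraries. These medians and counts are descriptions without a test. Besides *et* (3.97 kb), the Socs genes lay at 7.31 kb (*Socs16D*), 9.45 kb (*Socs36E*) and 18.6 kb (*Socs44A*). *Socs36E*, the best known target of the pathway, had a border at 18155000 on 2L in all 7 lists and hence the same distance in each, although its left edge varied.

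*Socs44A* had distances of 46.5, 46.5 and 6.48 kb in eye disc libraries 1, 2 and 3, and of 1.48 and 6.48 kb in antennal disc libraries 2 and 3. Eye disc library 3 was level with antennal disc library 3, and the two-sided exact permutation p was 0.4. Tests of single genes in this list stand outside the 25 tests over the 6 genes. *ken*, which encodes a repressor of some Stat92E targets, had 28.9, 33.9 and 33.9 kb in eye disc libraries 1, 2 and 3, against 8.86 and 8.86 kb in antennal disc libraries 2 and 3. It and *chinmo*, a target that encodes a transcription factor, were the 2 of 22 genes farther from borders in every eye disc library, a share close to the 7.73% of all genes. For *chinmo* the difference was 3.33 kb, less than 1 bin. The two-sided exact permutation test gave p = 0.2 for *ken* and for *chinmo*, the smallest that 3 against 2 libraries allow.

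The 4 cofactor genes split evenly around the median gene, and 4 of 6 targets and 3 of 5 upstream genes were farther. *Cdk4*, a cyclin-dependent kinase gene on 2R, was next to *et* in nearness at 4.51 kb. *fng*, a Notch pathway gene that helps to set the midline of the eye disc, was the farthest at 82.1 kb. *Stam*, an endosomal adaptor gene, varied most, with 1.74, 4.73 and 99.7 kb in eye disc libraries 1, 2 and 3, and 90.3 and 5.27 kb in antennal disc libraries 2 and 3.

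**Figure D4:**
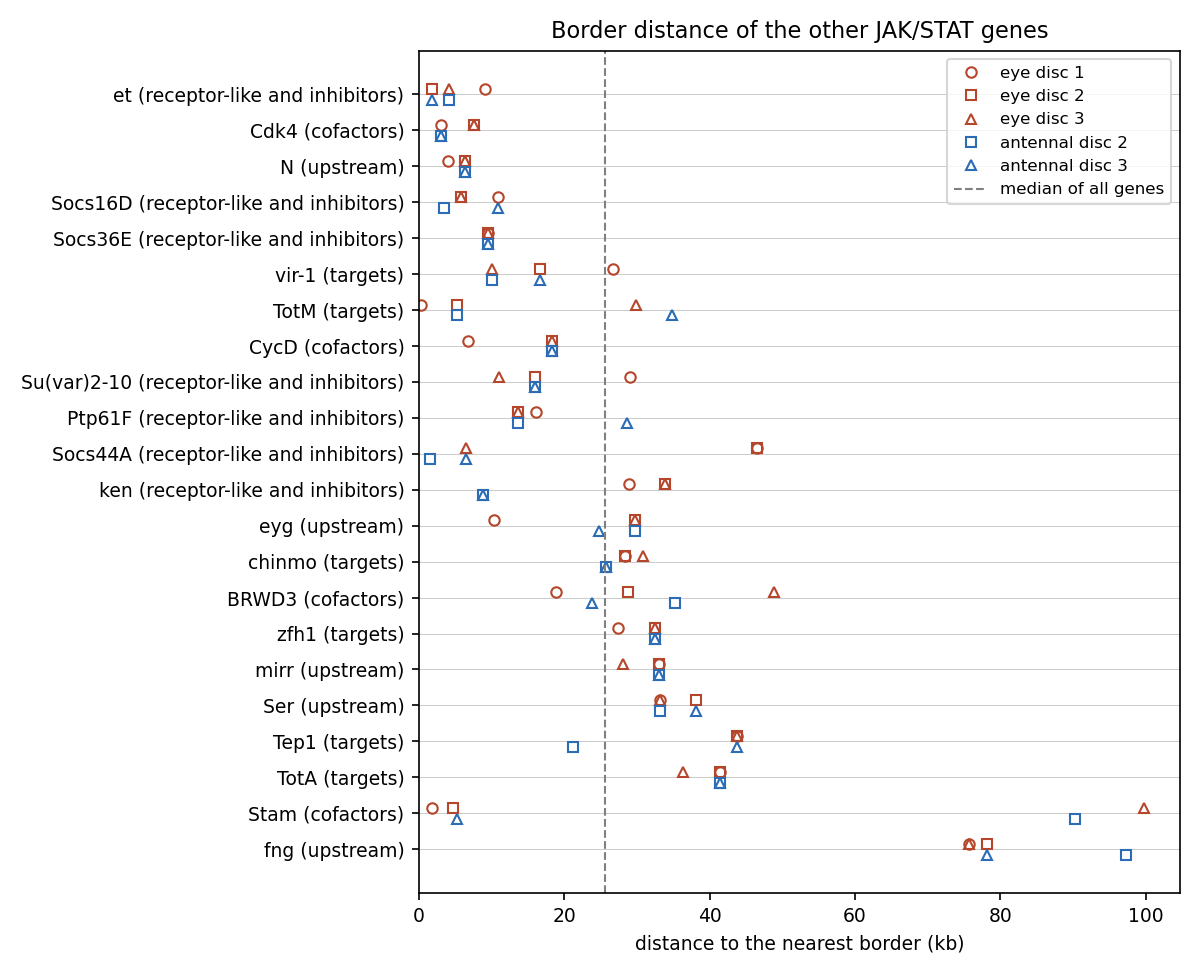
Border distance in kb of 22 further JAK/STAT genes with their listed role, nearest at the top; each symbol is 1 library, eye disc libraries above antennal ones, and the dashed line is the median of all genes (25.6 kb). The 7 receptor-like or inhibitory genes have means of the disc means left of the line, *ken* is farther from borders in the eye disc libraries, and *Stam* spreads from 1.74 to 99.7 kb.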

How the data were processed

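Alignment of the Hi-C reads used Bowtie2 2.3.4.2 and dm6, per the submitters' processing notes. No source used here gives the TAD caller or its settings. The deposited lists give chromosome, start and end on a 5 kb grid, from the authors, per library and per disc from pooled replicates. Depth per library is unknown. Antennal disc library 1 was not used on its own here, and the pooled antennal disc list may include it.

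Borders were TAD starts and ends; an end within 1 bin of the following start was merged with it. The host TAD held the gene midpoint; flanks ran from gene ends to its edges. Genes came from the RefSeq table of Release 6, without strand, exons or sequence, so no sequence is shown and motifs were not searched. Tests were two-sided exact permutation tests over 10 assignments of libraries (25 over the 6 genes; no p below 0.2), adjusted by Benjamini-Hochberg over all genes with a value in every library. The measures were checked on simulated data. The members and lists were chosen with earlier results of these data known.

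Named genes were the 6 genes, their nearest protein-coding neighbours, up to 5 genes most often in their host TAD, genes at edges of the pooled host TADs and, of the pathway list, *et*, the Socs genes and the 2 nearest and 2 farthest. Other named genes (*ken*, *chinmo*, *Ptp61F*, *N*, *CG6106*, *Him*, *Frq2* and genes at edges in single libraries) were chosen after their values were seen. Computation used scipy 1.17.1, pandas 2.3.3 and numpy 2.4.6 under Python 3.11.15, and figures matplotlib 3.10.9.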

Additional observations from a re-analysis of the deposited data

How the results depend on the processing

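The count of 0 borders inside the ligand cluster held under each alternative, among them a span wider or narrower by 1 bin. Leaving out each library gave eye minus antennal border distances of 27.5 to 42.5 kb for *upd1*, −19.4 to 41.7 kb for *upd2*, 10.9 to 27.5 kb for *upd3*, 0 to 5 kb for *dome*, −22.0 to −2.5 kb for *hop* and −8.68 to 0 kb for *Stat92E*. The *upd2* difference turned without eye disc library 2 or 3 or antennal disc library 3. Host TAD widths differed by −6.67 (without antennal disc library 3) to 78.3 kb for the ligand genes, 0 to 52.5 kb for *dome*, −57.5 to −2.5 kb for *hop* and 57.5 to 115 kb for *Stat92E*. Flanks, added after seeing the data, ranged on the left from −38.3 to 41.7 kb for the ligand genes and on the right from −2.5 (without eye disc library 3) to 47.5 kb for *dome*; the left flank turned without eye disc library 2 or 3 (−12.5 kb each) or antennal disc library 3. With the replicate number as a block (numbers 2 and 3, which the labels do not tie to a shared batch) the border distance difference was 27.5 kb for *upd1* and *upd3*, 39.5 kb for *upd2*, −22.0 kb for *hop* and 0 kb for *dome* and *Stat92E*, with no exact p below 0.5. That is the smallest p that 2 blocks allow in the exact permutation test, so it decides nothing. With 2 antennal libraries, whose deviations from their mean are opposite by construction, a correlation of deviations cannot show whether the numbers pair the libraries. In the pooled lists the border distance difference was 75 kb for *upd2*, −44.0 kb for *hop*, 25 kb for *upd1* and *upd3* and 0 kb for *dome* and *Stat92E*, and that of width and of right flank −5 kb for *dome*. Without eye disc library 1 and antennal disc library 3 together, also added later, the difference was −10 kb for the left flank of the ligand genes, −2.5 kb for the border distance and left flank of *dome* and −2.5 kb for the right flank of *Stat92E*. Of 30 host TADs 14 matched the pooled list within 1 bin and 4 exactly; within 2 bins 20 did. No other alternative turned a border distance or width. The causes were not tested.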

Other observations

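*N*, the gene of the Notch receptor, which acts upstream of the Unpaired ligands in growth of the eye disc, had a domain fitted closely to the gene. *N* runs from 3134870 to 3172221 on X. Its host TAD went from 3130001 to 3180000, 50 kb, in eye disc libraries 2 and 3, both antennal disc libraries and both pooled lists. In eye disc library 1 it was 35 kb wide, from 3140001 to 3175000, with an edge inside the gene. Another gene listed as upstream of the ligands, *fng*, lay in a much wider domain. That domain measured 175, 180 and 175 kb in eye disc libraries 1, 2 and 3, and 260 and 180 kb in antennal disc libraries 2 and 3. Its right edge was at 21035000 on 3L in all 7 lists.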
